A study of Homo sapiens with 9 samples.

Results

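The genes described here encode parts of the nuclear pore and the carriers that move cargo through it. They were chosen by the symbol in the platform annotation: the numbered NUP, IPO and XPO genes, XPOT, KPNA1 to KPNA7, TNPO1 to TNPO3, and KPNB1, NXF1, RAN, TPR, RANBP2, AAAS, SEH1L and SEC13. The rule found 51 genes, and all 51 were measured, of 16748 genes with a level. They were read by 1712 probe sets that carry 1 gene symbol, of which 1556 passed a filter on weak signal, with 9 to 62 per gene.

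The study asked how factors of mRNA 3' end formation bear on the use of internal exons. It used Flip-In-293 cells, a line of the human embryonic kidney HEK293 lineage that carries a docking site for inserted genes. All cells were infected with a lentivirus that expresses a short hairpin RNA and were cultured for 10 days before total RNA was taken. The hairpin was against CPSF3, the endonuclease of the cleavage and polyadenylation complex, against RBFOX2, a splicing regulator, or non-silencing as the control. Each group had 3 Affymetrix exon arrays, 9 in all, and the 2 hairpin groups share the same 3 control arrays. The sample titles call the replicates biological and the series description calls them technical, so each p-value reflects the scatter of these arrays alone, and that scatter may be technical. The sources used here give no number of hairpins or clones for a group.

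The nuclear pore is a ring of many copies of a limited set of nucleoporins set into the nuclear envelope. Y complexes form its outer rings, an inner ring holds the channel, and nucleoporins rich in phenylalanine-glycine repeats fill the channel and extend to the cytoplasm and to the nuclear basket. Importins bind cargo in the cytoplasm and release it in the nucleus, where RAN is bound to GTP, while exportins bind cargo together with RAN-GTP and release it in the cytoplasm; bulk mRNA leaves through NXF1 and needs no direct binding to RAN.

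Promoter sequences are shown because many of these genes moved together. RefSeq promoters of GRCh38.p14 were found for 45 of the 51 genes, as 58 entries. The 250 bases before the start of transcription are printed 5′ to 3′ on the gene's strand for NUP35 and NUP88, which had the largest rises in the setting reported, for NUP107, whose window holds all 3 motifs searched, and for RAN, which was not called. Capitals mark the motifs found on either strand: CCGGAAG, a core shared by ETS family factors, the NRF1 motif (GCGC, then A, any base, and GCGC again), and CCAAT. No marked motif overlapped another in these 4 windows. The NUP35 window is chr2:183124193-183124442 on the plus strand, the NUP88 window chr17:5419663-5419912 on the minus strand, the NUP107 window chr12:68686728-68686977 on the plus strand and the RAN window chr12:130871816-130872065 on the plus strand.
NUP35: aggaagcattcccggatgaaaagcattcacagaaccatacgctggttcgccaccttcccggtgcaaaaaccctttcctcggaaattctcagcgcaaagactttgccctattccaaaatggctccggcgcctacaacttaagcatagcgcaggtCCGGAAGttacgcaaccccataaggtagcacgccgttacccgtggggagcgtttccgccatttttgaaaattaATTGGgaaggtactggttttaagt
NUP88: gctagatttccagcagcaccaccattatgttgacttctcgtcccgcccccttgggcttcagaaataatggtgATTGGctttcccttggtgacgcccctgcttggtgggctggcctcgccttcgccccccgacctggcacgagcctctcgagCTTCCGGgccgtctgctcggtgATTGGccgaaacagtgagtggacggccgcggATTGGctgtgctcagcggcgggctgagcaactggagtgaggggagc
NUP107: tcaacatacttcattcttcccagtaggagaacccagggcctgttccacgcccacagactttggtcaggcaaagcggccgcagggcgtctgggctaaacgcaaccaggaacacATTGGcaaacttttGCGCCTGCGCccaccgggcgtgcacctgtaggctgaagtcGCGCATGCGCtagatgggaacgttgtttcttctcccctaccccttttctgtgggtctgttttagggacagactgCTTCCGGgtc
RAN: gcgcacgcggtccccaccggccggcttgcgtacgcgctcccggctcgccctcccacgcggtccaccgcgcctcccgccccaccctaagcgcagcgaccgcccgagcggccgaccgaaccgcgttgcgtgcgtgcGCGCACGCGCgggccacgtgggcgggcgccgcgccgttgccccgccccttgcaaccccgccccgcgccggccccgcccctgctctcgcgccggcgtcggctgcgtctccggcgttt

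NUP35 carries 1 CCGGAAG and 1 CCAAT, NUP88 carries 1 and 3, NUP107 carries 1 of each with 2 NRF1 motifs, and RAN carries 1 NRF1 motif alone. CCGGAAG stood in 26.7% of the 30 entries of genes called higher on the arrays labelled CPSF3 knockdown, in 21.4% of the 28 entries of genes not called, and in 8.52% of all 35116 promoters of the same length. The NRF1 motif stood in 23.3%, 7.14% and 5.07% of these sets. CCAAT stood in 46.7%, 35.7% and 32%. A match describes letters in the window; 1 gene may have several entries, and none of these shares was tested.

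The gene level used below is the median log2 signal over a gene's kept probe sets. Levels are compared between arrays only, never between genes, because probe sets differ in brightness. RMA gave all arrays the same distribution of signals, and a shift common to most RNAs would be lost by it. In such bulk RNA, fewer cells of a type and less RNA per cell cannot be told apart.

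The targets were read first. CPSF3 had levels of 9.60, 9.27 and 9.27 on the arrays labelled CPSF3 knockdown, against 9.33, 9.29 and 9.80 on the control arrays, a difference of -0.09 ± 0.16 (SE; limma adjusted p = 0.752). The arrays do not show the loss that the label names, and the deposited probe sets cannot say whether the protein fell, so these arrays are called by their label and every direction given for them rests on it. RBFOX2 had 8.95, 8.82 and 9.05 on the RBFOX2 knockdown arrays, against 9.66, 9.54 and 9.38 on the control arrays, a difference of -0.58 ± 0.12 (SE; adjusted p = 0.0617). All 3 RBFOX2 knockdown arrays lay below all 3 controls.

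Control replicate 3 stood nearer to the other groups than the other controls did. Its gene levels correlated across genes at r = 0.979 with RBFOX2 replicate 2, against 0.957 with control replicate 1 and 0.939 with control replicate 2 (genes are not independent, and no test was made). It was the highest control for 19 of the 25 pore and transport genes called below (76%) and for 28 of all 51 (54.9%), against 46.7% of all genes. Counts without it are given beside the results. Of 8 HEK293 markers, NEFL (-0.87 ± 0.12), VIM (-1.05 ± 0.12) and KRT8 (-0.57 ± 0.13) fell on the arrays labelled CPSF3 knockdown, where 4.38% of all genes were called lower. Of 13 markers of blood, endothelium, fibroblasts and keratinocytes, 12 were measured and 0 were called on these arrays, and 5 of the 12 lay under the filter by the median of their probe sets. Both statements rest on adjusted p at 0.05. On the RBFOX2 knockdown arrays NEFL (-0.48), VIM (-0.42) and KRT8 (-0.49) also lay below all controls, and none was called. The part of these marker differences in the results below was not tested.

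On the arrays labelled CPSF3 knockdown, 25 of the 51 genes rose against control and 0 fell, by limma with Benjamini-Hochberg adjustment over all 16748 genes at 0.05. Among all genes, 10.0% were called higher and 4.38% lower, so that 49% of the pore and transport genes stood against 10.0%. The median difference was 0.38 over the 51 genes and 0.01 over all genes. Of the 25 pore proteins 13 rose, and of the 26 carriers and other transport genes 12 rose. All 3 arrays lay above all 3 controls for 33 genes and below them for 2, NUP210 and KPNA7, where 17.9% and 13.2% of all genes did so. Without control replicate 3, 27 genes were called (52.9%, against 20.5% of all genes called in either direction in the same fit). Leaving out CPSF3 replicate 1 left 10 (19.6%, against 5.76%), the lowest count found. The count was 14 without control replicate 1 (27.5%, against 6.46%) and 14 without control replicate 2 (27.5%, against 7.19%). Without CPSF3 replicate 2 it was 16 (31.4%, against 8.75%).

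**Figure D1:**
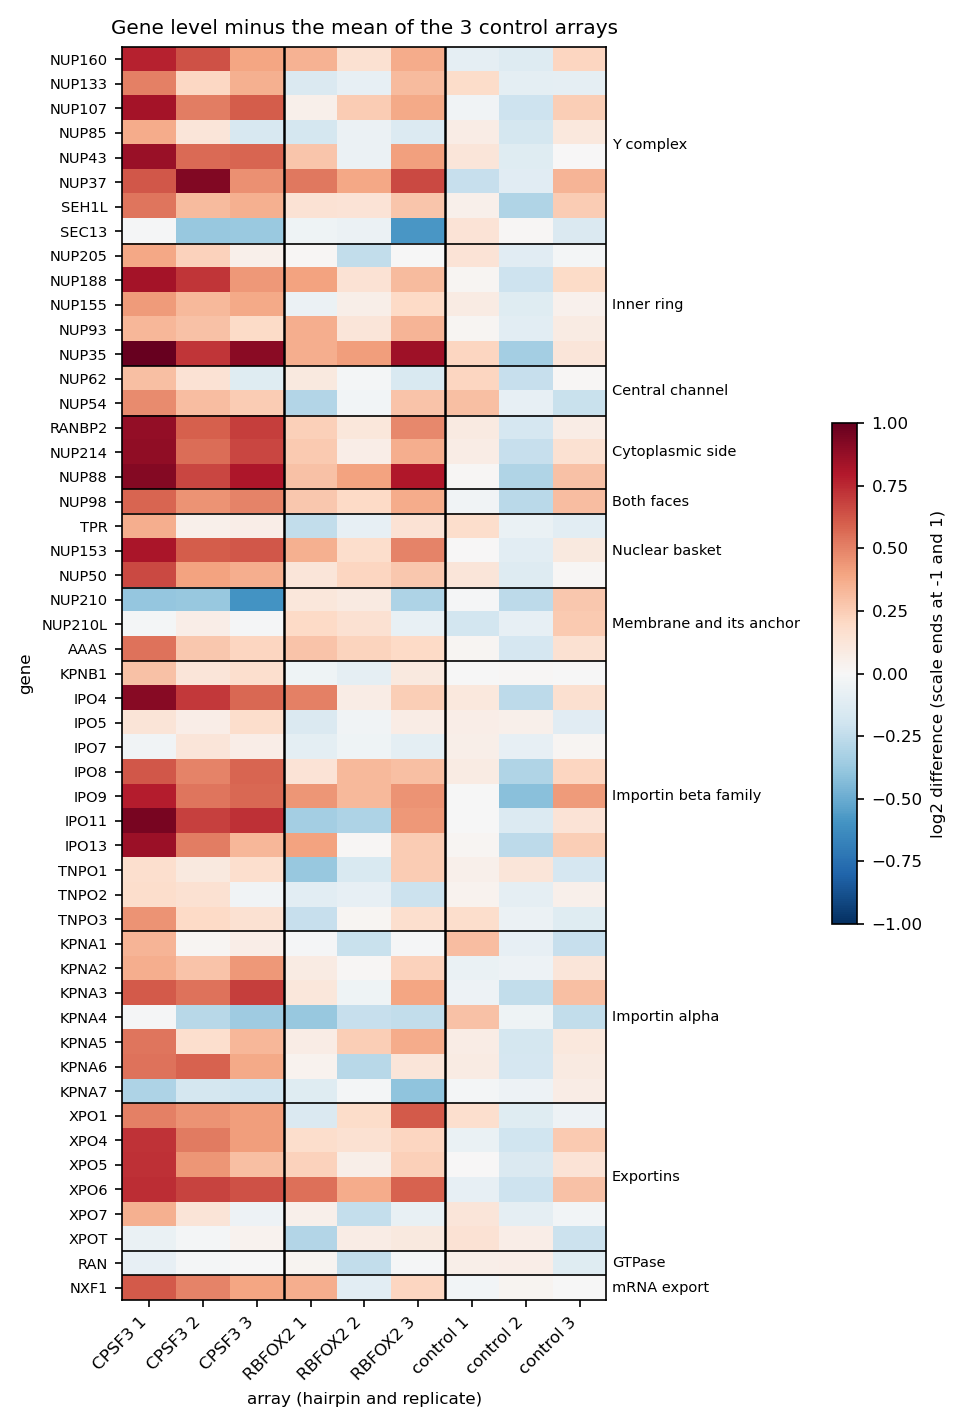
Gene level of each of the 51 genes on each of the 9 arrays minus the mean of the 3 control arrays, on a log2 colour scale that ends at -1 and 1; rows are genes grouped by role and columns are arrays grouped by hairpin. The median over the 25 called genes was 0.77, 0.56 and 0.57 on the arrays labelled CPSF3 knockdown, 0.27, 0.15 and 0.37 with the RBFOX2 hairpin and 0.01, -0.20 and 0.16 on the control arrays.

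The heat map shows that CPSF3 replicate 1 was the highest array for most of the called genes and that the RBFOX2 knockdown arrays lay between the other groups for many of them. Rows of called genes are found in every role with more than 3 genes, while the rows of RAN and IPO7 stayed pale on all 9 arrays.

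The Y complex is the outer scaffold of the pore, and 4 of its 8 genes rose. NUP37 had levels of 9.09, 9.39 and 8.92 on the arrays labelled CPSF3 knockdown, against 8.23, 8.35 and 8.81 on the control arrays, a rise of 0.67 ± 0.16 (SE; adjusted p = 0.0148). Control replicate 3 lay close under the lowest of the other group, so the gap was small. NUP43 had 11.04, 10.74 and 10.75, against 10.29, 10.05 and 10.18 on the control arrays, a rise of 0.67 ± 0.14 (adjusted p = 0.00803). NUP107 had 9.92, 9.61 and 9.69, against 9.05, 8.89 and 9.34 on the control arrays, a rise of 0.65 ± 0.14 (adjusted p = 0.00947). Both are scaffold subunits, and for both the 3 arrays of one group lay above all of the other. NUP160, a subunit at the end of the Y's arm, had 9.57, 9.44 and 9.19, against 8.71, 8.67 and 9.02 on the control arrays, a rise of 0.60 ± 0.13 (adjusted p = 0.0111). SEC13, which is also a subunit of the COPII vesicle coat, had 9.18, 8.82 and 8.83, against 9.33, 9.20 and 9.05 on the control arrays. The SEC13 groups overlapped and the difference of -0.26 ± 0.16 was not called (adjusted p = 0.327). The other 3, NUP133, NUP85 and SEH1L, had differences of 0.36, 0.11 and 0.40, none called.

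The inner ring anchors the channel to the scaffold and the membrane, and 3 of its 5 genes rose. NUP35, a small subunit that contacts the membrane, had levels of 8.94, 8.51 and 8.70 on the arrays labelled CPSF3 knockdown, against 8.01, 7.46 and 7.92 on the control arrays. All 3 lay well above the highest control, and the rise of 0.92 ± 0.17 (SE; 1.89-fold; adjusted p = 0.00522) was the largest of the 51 in the setting reported. It was 0.52 with the filter at the upper quartile, and with other settings it lay between 0.67 and 1.03, so its rank depends on the setting. Its level rests on 11 probe sets, of which 10 were higher and 7 lay apart on all arrays. NUP188, a large scaffold protein that binds NUP93, had 10.10, 9.99 and 9.71, against 9.29, 9.07 and 9.46 on the control arrays, a rise of 0.66 ± 0.14 (adjusted p = 0.00803). NUP155, which links the ring to membrane proteins of the pore, rose by 0.38 ± 0.11 (adjusted p = 0.0399), a call lost in 8 of 18 other settings (adjusted p up to 0.146). NUP93 and NUP205 had differences of 0.27 and 0.22 that were not called. In the central channel NUP62 and NUP54, partners in 1 complex rich in phenylalanine-glycine repeats, had differences of 0.11 and 0.34, and neither was called.

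The cytoplasmic side had 3 genes, and all 3 rose. NUP88 had levels of 11.19, 10.93 and 11.08 on the arrays labelled CPSF3 knockdown, against 10.28, 9.97 and 10.56 on the control arrays, a rise of 0.80 ± 0.16 (SE; 1.74-fold; adjusted p = 0.00755). NUP214, its partner at the cytoplasmic face and a docking site for XPO1, had 10.30, 9.97 and 10.08, against 9.49, 9.18 and 9.57 on the control arrays, a rise of 0.70 ± 0.14 (adjusted p = 0.00585). The groups stood apart for both partners. RANBP2, which forms the cytoplasmic filaments and binds RAN, had 10.02, 9.74 and 9.83, against 9.23, 8.97 and 9.22 on the control arrays, a rise of 0.72 ± 0.13 (adjusted p = 0.00453). RANBP2 has near-identical RGPD copies in the genome, and 19 of its probe sets that carry several symbols were left out, so its level is uncertain. NUP98 lines both faces of the channel and its gene also encodes NUP96, a Y complex scaffold protein cut from a shared precursor. It had 10.18, 10.04 and 10.09, against 9.56, 9.32 and 9.90 on the control arrays, a rise of 0.51 ± 0.14 (adjusted p = 0.0264).

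**Figure D2:**
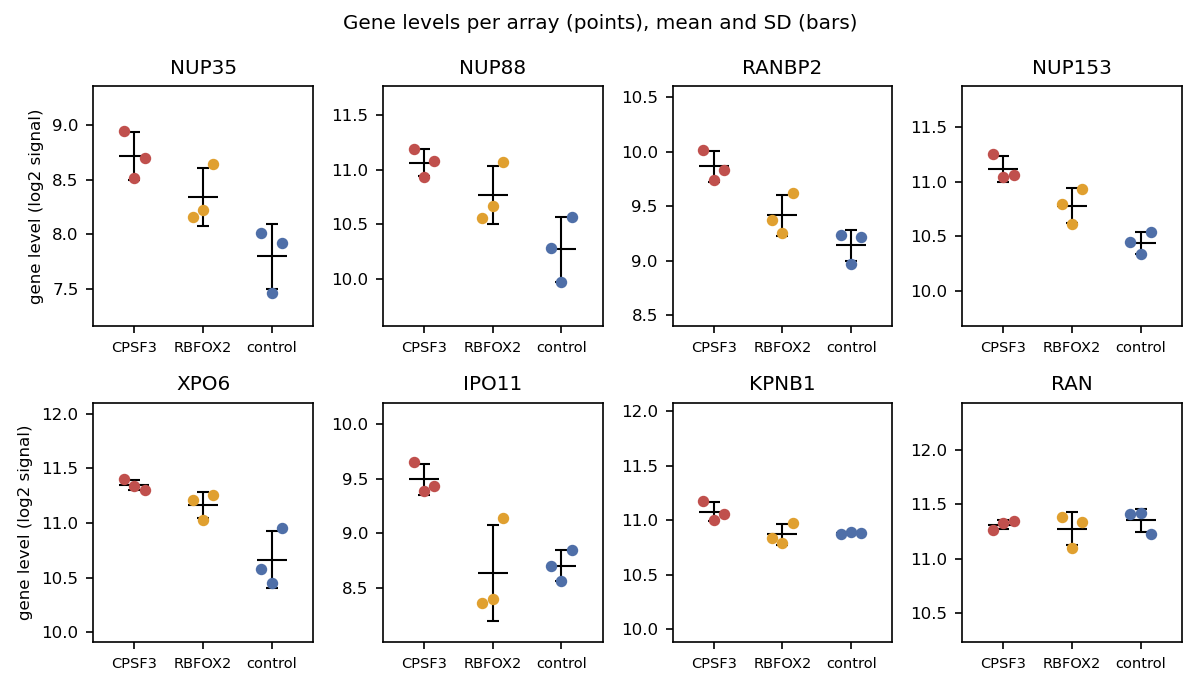
Gene level (log2 signal) of 8 genes on each array, with each panel on its own axis of equal height; points are arrays, and the lines show the mean and SD of the 3 arrays labelled CPSF3 knockdown, the 3 RBFOX2 knockdown arrays and the 3 control arrays. NUP35 averaged 8.72 ± 0.22 on the arrays labelled CPSF3 knockdown, against 7.80 ± 0.30 on the control arrays, while RAN averaged 11.31 ± 0.04, against 11.35 ± 0.11 (SD, n = 3 each).

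The plot of levels by array sets 6 called genes beside KPNB1 and RAN, which were not called. In the called genes every array labelled CPSF3 knockdown lies above every control array, and for NUP88 and NUP35 the highest RBFOX2 knockdown array reaches into the range of the arrays labelled CPSF3 knockdown.

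The nuclear basket faces the nucleoplasm, and 2 of its 3 genes rose. NUP153, which docks import complexes and tethers the basket, had levels of 11.25, 11.04 and 11.06 on the arrays labelled CPSF3 knockdown, against 10.44, 10.33 and 10.53 on the control arrays. The gap between the groups was wide against the spread within each, and the rise was 0.68 ± 0.12 (SE; 1.6-fold; adjusted p = 0.00418), the smallest adjusted p among the 51 genes. NUP50, a mobile partner of NUP153 in importin release, rose by 0.48 ± 0.12 (adjusted p = 0.0186). TPR, the filament protein of the basket, had 10.04, 9.73 and 9.75, against 9.85, 9.61 and 9.57 on the control arrays, and these overlapped. Its difference of 0.16 ± 0.14 was not called (adjusted p = 0.49) and ranged between -0.01 and 0.25 over the other settings tried.

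Of the 3 genes at the membrane, 0 were called. NUP210, a transmembrane nucleoporin, had levels of 10.71, 10.73 and 10.50 on the arrays labelled CPSF3 knockdown, against 11.09, 10.84 and 11.38 on the control arrays. The groups did not overlap, but the difference of -0.45 ± 0.15 missed the threshold (adjusted p = 0.0642), with 25 of its 51 probe sets below all controls and 0 above. AAAS, which is held at the pore by a membrane nucleoporin, had 10.82, 10.55 and 10.50, against 10.30, 10.11 and 10.43 on the control arrays, a difference of 0.34 ± 0.12 (adjusted p = 0.083). NUP210L, a relative of NUP210, had 7.53, 7.62 and 7.54, against 7.37, 7.47 and 7.81 on the control arrays, and only 11 of its 48 probe sets passed the filter on weak signal.

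Carriers of the importin beta family bind cargo or an adaptor and shuttle through the pore, and 5 of 11 rose. IPO11, which imports ubiquitin-conjugating enzymes, had levels of 9.66, 9.39 and 9.44 on the arrays labelled CPSF3 knockdown, 8.36, 8.40 and 9.14 with the RBFOX2 hairpin and 8.70, 8.57 and 8.85 on the control arrays. The rise against control was 0.79 ± 0.18 (SE; 1.73-fold; adjusted p = 0.0116), and 31 of its 36 probe sets lay above all controls. IPO4, a carrier of histones and ribosomal proteins, had 10.92, 10.72 and 10.58, against 10.12, 9.75 and 10.17 on the control arrays, a rise of 0.73 ± 0.15 (adjusted p = 0.00717). IPO9, another carrier of histones, had 10.67, 10.42 and 10.46, against 9.88, 9.46 and 10.31 on the control arrays, a rise of 0.63 ± 0.17 (adjusted p = 0.0253). The IPO9 controls spread widely, with an SD of 0.42, and replicate 3 lay just under the lowest CPSF3 array. IPO8 rose by 0.57 ± 0.14 (adjusted p = 0.0147) and IPO13, which both imports and exports, by 0.57 ± 0.16 (adjusted p = 0.0333). KPNB1, the importin beta that carries most classical cargo with importin alpha, had 11.17, 11.01 and 11.05, against 10.88, 10.89 and 10.88 on the control arrays. Its arrays lay above the controls, yet the difference of 0.20 ± 0.11 was not called (adjusted p = 0.254). The other 5, IPO5, IPO7, TNPO1, TNPO2 and TNPO3, had differences between 0.05 and 0.27, none called. For IPO7, 33 of 35 probe sets had a higher mean than the control arrays, with 9 above all controls and 0 below all.

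Importin alpha proteins are the adaptors that read classical import signals, and 3 of 7 rose. KPNA3 had levels of 10.88, 10.81 and 10.95 on the arrays labelled CPSF3 knockdown, against 10.21, 10.02 and 10.56 on the control arrays, a rise of 0.62 ± 0.15 (SE; adjusted p = 0.0153). KPNA6 rose by 0.51 ± 0.13 (adjusted p = 0.021), with 10.57, 10.62 and 10.41 against 10.11, 9.86 and 10.12 on the control arrays. KPNA2 rose by 0.36 ± 0.11 (adjusted p = 0.0449), with 12.68, 12.59 and 12.74 against 12.24, 12.26 and 12.43 on the control arrays, a call lost in 10 of 18 other settings (adjusted p up to 0.152). The groups did not overlap for any of these adaptors. KPNA1, KPNA4, KPNA5 and KPNA7 had differences of 0.14, -0.22, 0.34 and -0.23, none called.

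Exportins carry cargo out with RAN-GTP, and 3 of 6 rose. XPO6, the exporter of actin bound to profilin, had levels of 11.40, 11.34 and 11.30 on the arrays labelled CPSF3 knockdown, against 10.58, 10.45 and 10.96 on the control arrays. The CPSF3 arrays were tightly grouped and lay above all controls, a rise of 0.69 ± 0.13 (SE; 1.61-fold; adjusted p = 0.00606). XPO4, which exports a translation factor, rose by 0.55 ± 0.13 (adjusted p = 0.0146) and XPO5, the exporter of microRNA precursors, by 0.49 ± 0.13 (adjusted p = 0.0249). XPO1, the exporter of proteins with leucine-rich signals, had 10.04, 9.99 and 9.95, against 9.70, 9.42 and 9.49 on the control arrays. Its arrays stood apart and 28 of its 35 probe sets lay above all controls, but the difference of 0.46 ± 0.16 missed the threshold (adjusted p = 0.0721); it was called in 6 of 18 other settings. XPO7 and XPOT, the tRNA exporter, had differences of 0.14 and -0.02.

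RAN, the GTPase whose bound nucleotide sets the direction of transport, had levels of 11.27, 11.33 and 11.35 on the arrays labelled CPSF3 knockdown, 11.38, 11.10 and 11.34 with the RBFOX2 hairpin and 11.41, 11.42 and 11.23 on the control arrays. These overlap in all groups, and the difference of -0.04 ± 0.12 against control (SE; 95% interval -0.28 to 0.21; adjusted p = 0.873) took values between -0.10 and 0.17 over the other settings tried. Of RAN's 17 probe sets, 15 had a higher mean than the control arrays, with 2 above all controls and 0 below all. Most of its probe sets thus differed in the other direction from its gene level. NXF1, the main exporter of mRNA, had 10.32, 10.20 and 10.10, against 9.68, 9.74 and 9.70 on the control arrays. The NXF1 controls lay within a narrow band under all 3 arrays of the other group, a rise of 0.50 ± 0.13 (adjusted p = 0.0201).

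**Figure D3:**
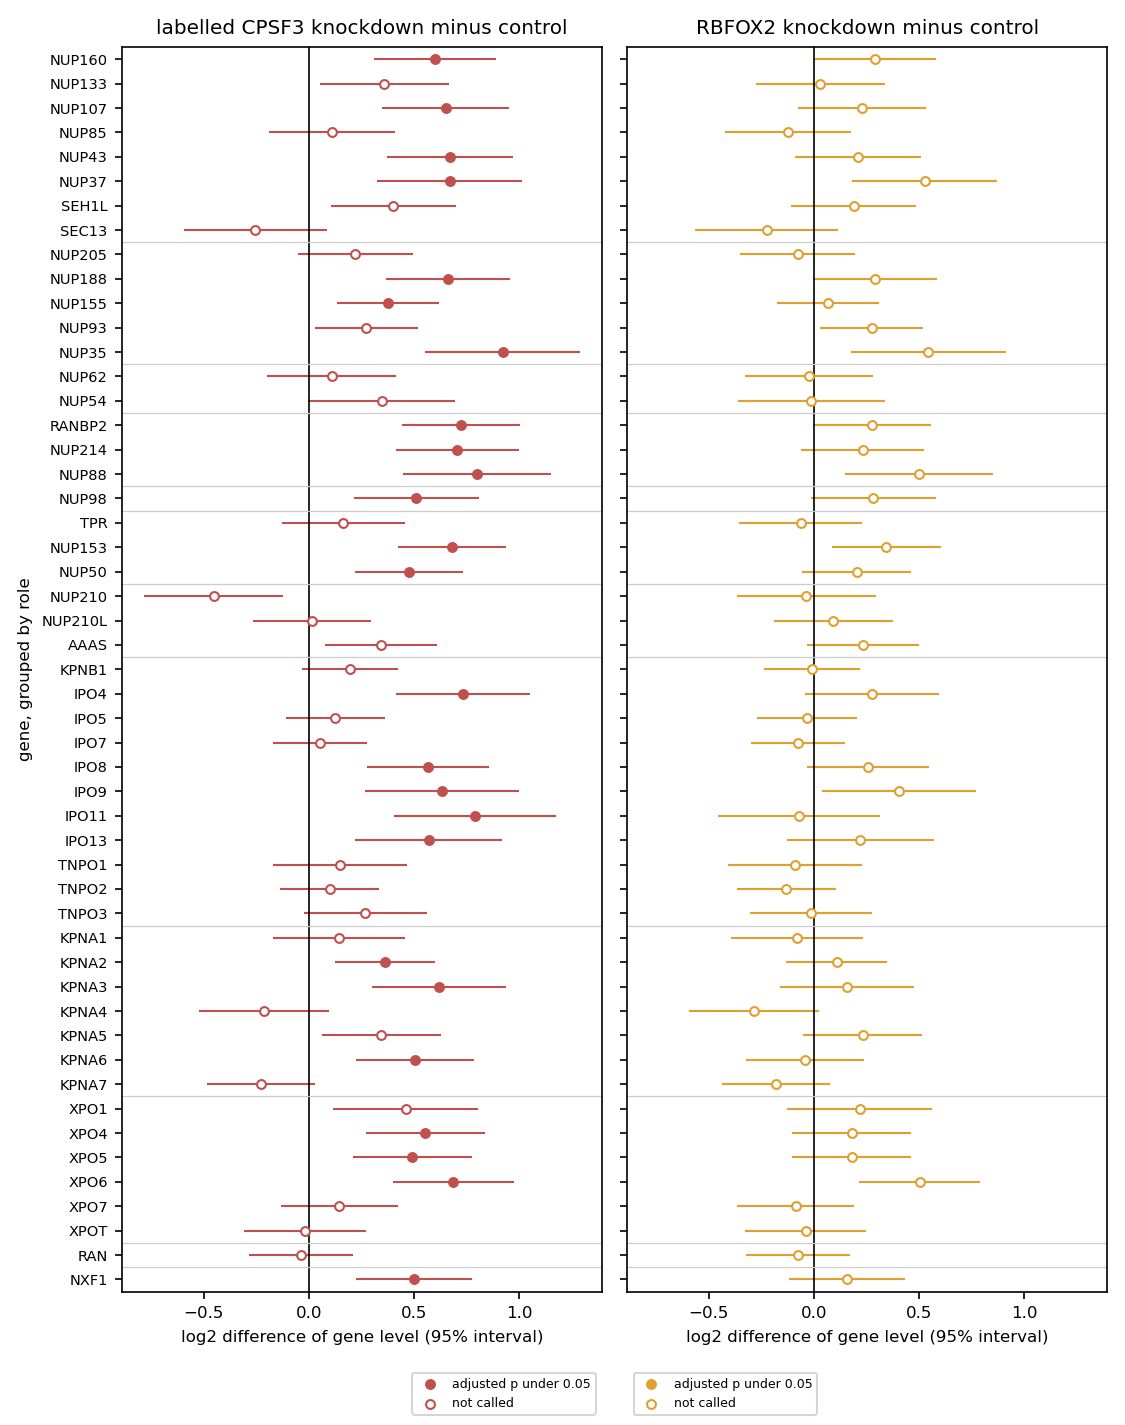
Difference of gene level from the 3 control arrays (log2, x axis) for each of the 51 genes in order of role, with 95% intervals; the left panel shows the arrays labelled CPSF3 knockdown and the right panel the RBFOX2 knockdown arrays, and filled points have an adjusted p under 0.05. In the left panel 25 points are filled, all to the right of 0, and in the right panel 0 are.

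The plot of differences shows 45 of 51 genes to the right of 0 on the arrays labelled CPSF3 knockdown, and the 6 to the left are SEC13, NUP210, KPNA4, KPNA7, XPOT and RAN. On the RBFOX2 knockdown arrays 30 lie to the right. Both panels use the same control arrays, so they are not independent of each other.

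Against control, 0 of the 51 genes were called on the RBFOX2 knockdown arrays, where 0.0299% of all genes were called higher and 0.143% lower. An unadjusted p under 0.05 was found for 8 of the 51 genes, a share near the 13.6% of all genes. The median difference was 0.16, against 0.03 over all genes. All 3 arrays lay above all 3 controls for 7 genes, where 7.07% of all genes did so, and below for 0, where 7.05% did. Without control replicate 3, 5 genes were called higher, XPO6, NUP37 and NUP88 among them; these are 9.8% of the 51, near the 9.23% of all genes called in either direction (7.03% higher) in the same fit.

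The genes with the smallest p against control were these. XPO6 had levels of 11.21, 11.03 and 11.25 on the RBFOX2 knockdown arrays, against 10.58, 10.45 and 10.96 on the control arrays, a difference of 0.50 ± 0.13 (SE; adjusted p = 0.141). NUP37 had 8.99, 8.85 and 9.13, against 8.23, 8.35 and 8.81 on the control arrays, a difference of 0.53 ± 0.16 (adjusted p = 0.173). Both stood above all controls, and for NUP37 the lowest of them lay just over control replicate 3. NUP35 had 8.16, 8.22 and 8.65, against 8.01, 7.46 and 7.92 on the control arrays, a difference of 0.54 ± 0.17 (adjusted p = 0.192), which was 0.11 with the filter at the upper quartile and 0.33 with the mean as gene level. NUP88 had 10.56, 10.67 and 11.07, against 10.28, 9.97 and 10.56 on the control arrays, a difference of 0.50 ± 0.16 (adjusted p = 0.207). NUP153 had 10.79, 10.61 and 10.93, against 10.44, 10.33 and 10.53 on the control arrays, a difference of 0.34 ± 0.12 (adjusted p = 0.227). RBFOX2 replicate 3 was the highest of its group for each of these 5 genes.

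Between the hairpins, 0 of the 51 genes were called on the arrays labelled CPSF3 knockdown against the RBFOX2 knockdown arrays, where 0.137% of all genes were called higher and 0.263% lower. An unadjusted p under 0.05 was found for 23 of the 51, against 13.3% of all genes, and 46 differences were positive, with a median of 0.24. All 3 arrays lay above all 3 RBFOX2 knockdown arrays for 27 genes and below for 1, where 10.9% and 9.41% of all genes did so. IPO11 had the smallest p: its 3 arrays labelled CPSF3 knockdown lay above the RBFOX2 knockdown arrays by 0.86 ± 0.18 (SE; adjusted p = 0.0638), and RBFOX2 replicate 3 stood well above the other 2 of its group. KPNA6 had 10.57, 10.62 and 10.41 on the arrays labelled CPSF3 knockdown, against 10.06, 9.75 and 10.15 on the RBFOX2 knockdown arrays, a difference of 0.55 (adjusted p = 0.104). NUP214 had 10.30, 9.97 and 10.08, against 9.67, 9.48 and 9.78 on the RBFOX2 knockdown arrays, a difference of 0.47 (adjusted p = 0.17). In the setting reported, the labelled CPSF3 group and the RBFOX2 group were therefore not shown to differ for any of the 51 genes. Against control, the RBFOX2 group differed by -0.07 for IPO11, -0.04 for KPNA6 and 0.23 for NUP214, none called. Between the hairpins, IPO11 was called in 6 of 18 other settings, and KPNA6 and NUP214 in 1 each.

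Single probe sets give a reading of each gene that does not pass through the median. On the arrays labelled CPSF3 knockdown, 84.4% of the 1556 probe sets had a higher mean than the control arrays, against 54.1% of the probe sets of all genes. All 3 arrays lay above all 3 controls for 51.3% of them and below for 3.21%, against 17.0% and 10.8% of the probe sets of all genes. On the RBFOX2 knockdown arrays 9.13% lay above all controls, against 6.37% over all genes. Probe sets of 1 gene read the same RNA and are not replicates.

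**Figure D4:**
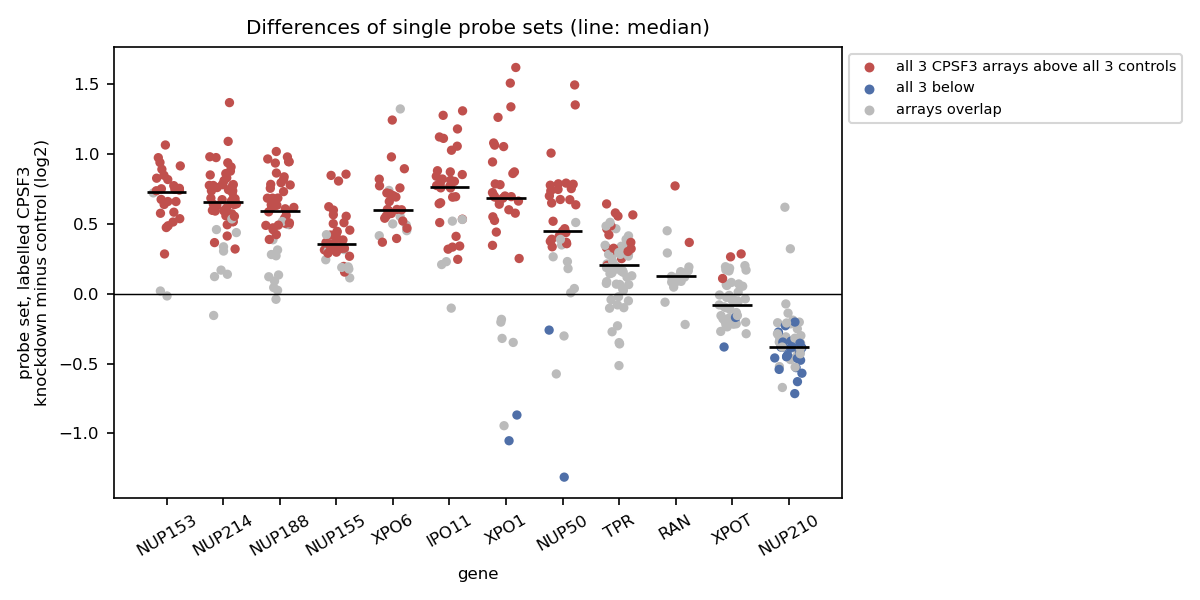
Difference of single probe sets between the arrays labelled CPSF3 knockdown and the control arrays (log2, y axis) for 12 genes; each point is a probe set, red where all 3 arrays lay above all 3 controls, blue where all 3 lay below and grey where they overlap, and the line is the median. IPO11 has 31 red points of 36 and NUP210 has 25 blue points of 51.

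The plot of probe sets shows that most probe sets of the called genes lay above 0. NUP214 had 53 of 54 probe sets higher, NUP188 had 47 of 48, XPO6 had 30 of 30 and NUP155 had 39 of 39. XPO1 and NUP50 also hold single probe sets that lay below all controls while most lay above. TPR had 51 of 62 probe sets higher, with 15 above all controls.

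The arrays were designed to read exons, so each probe set's signal minus the level of its gene on the same array, the exon signal, was tested across 257548 probe sets. None of the 1556 probe sets was called on either set of hairpin arrays by limma, where 0 of all probe sets were called (0% in each comparison). An unadjusted p under 0.05 was found for 184 of them (11.8%) on the arrays labelled CPSF3 knockdown, against 12.7% of all probe sets. It was found for 88 (5.66%) on the RBFOX2 knockdown arrays, against 7.88%. Between the hairpins it was 39 (2.51%), against 4.24%. Without control replicate 3, 23 were called on the arrays labelled CPSF3 knockdown (1.48%, against 1.49% of all probe sets) and 7 on the RBFOX2 knockdown arrays (0.45%, against 0.32%), shares near those of all probe sets. Where a probe set lies along its gene was not analysed here, so no exon is named.

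The smallest p was that of probe set ps3948484 of NUP50, with exon signals of -3.64, -3.64 and -3.38 on the arrays labelled CPSF3 knockdown, -3.06, -3.31 and -3.31 with the RBFOX2 hairpin and -1.51, -1.48 and -2.30 on the control arrays. Both hairpin groups lay below all 3 controls, with differences of -1.79 ± 0.21 (SE; adjusted p = 0.0603) and -1.46 ± 0.21 (adjusted p = 0.405). Its own signal, gene level plus exon signal, lay under the filter of 6.97 on all hairpin arrays and over it on all control arrays. It thus passed the filter only through the control arrays, and its values on the hairpin arrays are weak signal. Probe set ps3742668 of NUP88 had a mean of -2.19 ± 0.11 on the arrays labelled CPSF3 knockdown, -2.22 ± 0.19 on the RBFOX2 knockdown arrays and -1.39 ± 0.11 on the control arrays (SD, n = 3 each). Its differences had limma adjusted p = 0.0782 and 0.405. In XPO1, 3 probe sets were named, and each differed from control in the same direction with both hairpins. Both differences use the same control arrays, and the probe sets were picked by small p against them, so the shared direction is not independent evidence. Gene level plus exon signal lay near the filter of 6.97 for ps2555498 on the control arrays and for ps2555519 on the RBFOX2 knockdown arrays. For ps2555498 the difference was 1.16 ± 0.20 on the arrays labelled CPSF3 knockdown (adjusted p = 0.0802) and 0.79 ± 0.20 with the RBFOX2 hairpin (adjusted p = 0.452). For ps2555519 it was -1.40 ± 0.30 (adjusted p = 0.112) and -1.42 ± 0.30 (adjusted p = 0.405), and for ps2555517 it was -1.51 ± 0.30 (adjusted p = 0.0967) and -1.39 ± 0.30 (adjusted p = 0.405), in the same order. The others named by p were ps2774029 of NUP54 with -1.56 ± 0.30 (adjusted p = 0.0916) and -1.09 ± 0.30 (adjusted p = 0.462), ps3372078 of NUP160 with -0.94 ± 0.26 (adjusted p = 0.183) and -1.20 ± 0.26 (adjusted p = 0.405), and ps2518748 of NUP35 with -0.93 ± 0.17 (adjusted p = 0.0894) and -0.55 ± 0.17 (adjusted p = 0.506). An exon signal also falls where the gene level is higher and the probe set is not. The probe set ps2518748 of NUP35 had a signal difference of its own of -0.011 on the arrays labelled CPSF3 knockdown and -0.0042 with the RBFOX2 hairpin, and ps3742668 of NUP88 had -0.0077 and -0.33. On the arrays labelled CPSF3 knockdown, the exon signal differences of both are thus nearly all gene level subtracted from a probe set that hardly differed.

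A further list held 39 genes of the pore and of transport that the naming rule leaves out, of which 35 were measured. On the arrays labelled CPSF3 knockdown 12 of the 35 rose and 0 fell (34.3%), where 10.0% of all genes were called higher and 4.38% lower. The median difference was 0.27, against 0.01 over all genes. NCBP1 kept its call in all 18 other settings, and the other 11 lost theirs in 3 to 9 of them, POM121 and THOC6 in 9 each. NCBP1, the large subunit of the nuclear cap-binding complex, had levels of 9.89, 9.76 and 9.92 on the arrays labelled CPSF3 knockdown, 9.35, 9.49 and 9.55 with the RBFOX2 hairpin and 8.78, 8.53 and 9.30 on the control arrays. It rose by 0.98 ± 0.16 (SE; adjusted p = 0.00307). NUP42, on the cytoplasmic side, rose by 0.72, CSE1L, which returns importin alpha to the cytoplasm, by 0.67, and SNUPN, the adaptor that imports spliceosomal small nuclear RNA particles, by 0.56. NXT2, a cofactor of NXF1, rose by 0.54, and AHCTF1, which starts pore assembly on chromatin, by 0.50. By role, 4 of 8 other pore genes, 1 of 5 genes of the RAN cycle, 2 of 3 carriers and adaptors, 4 of 16 genes of mRNA export and 1 of 3 of small nuclear and transfer RNA export rose. On the RBFOX2 knockdown arrays 0 of the 35 were called, where 0.0299% of all genes were called higher and 0.143% lower. All 3 arrays lay above all controls for 4 of the 35, where 7.07% of all genes did so. They lay below all controls for 3, NUTF2, RAE1 and NUP58, where 7.05% did. NUTF2 differed from control by -0.60 ± 0.12 (limma adjusted p = 0.0617), RAE1 by -0.44 and NUP58 by -0.42. NUTF2, the importer of RAN bound to GDP, differed between the hairpins: it had 12.15, 11.86 and 11.88 on the arrays labelled CPSF3 knockdown, against 11.40, 11.33 and 11.28 on the RBFOX2 knockdown arrays, a difference of 0.63 ± 0.12 (adjusted p = 0.0412). The control arrays had 11.97, 11.80 and 12.04, in the range of the arrays labelled CPSF3 knockdown, and the call was lost in 10 of 18 other settings.

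**Figure D5:**
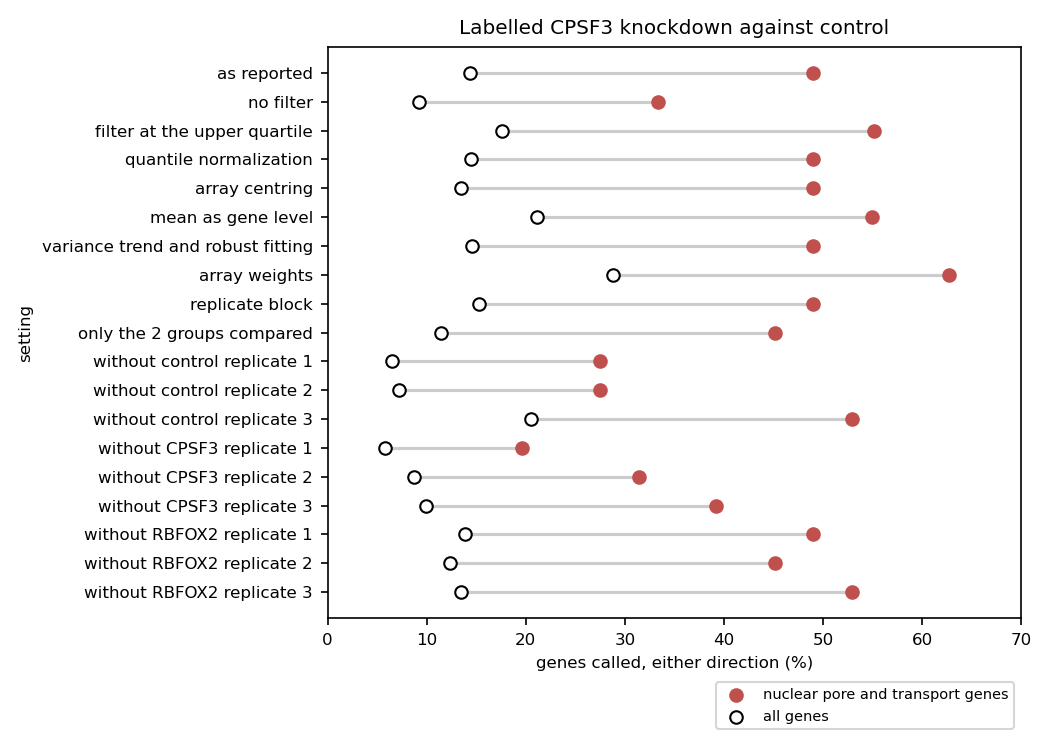
Share of genes called in either direction on the arrays labelled CPSF3 knockdown against control (%, x axis), for the reported setting and 18 others (y axis); filled points are the nuclear pore and transport genes and open points all genes. The share of pore and transport genes lay between 19.6% and 62.7%, and that of all genes between 5.76% and 28.8%.

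In the plot of settings the filled point lay to the right of the open one in each setting drawn. Of the 25 called genes, 9 kept their call in all 18 other settings: NUP43, NUP188, NUP35, RANBP2, NUP214, NUP88, NUP153, IPO4 and XPO6. Another 4, NUP160, NUP107, IPO8 and IPO11, lost it in 1 or 2 settings. Beside KPNA2 and NUP155, it was lost in 6 settings for IPO9, in 5 each for NUP98, IPO13 and XPO5, in 4 each for NUP37, KPNA3, XPO4 and NXF1, and in 3 each for NUP50 and KPNA6. All 25 differences stayed positive.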

How the data were processed

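The deposited files hold 1 log2 signal per probe set and array. Per the submitters' processing notes, the authors used RMA and Affymetrix Power Tools with build hg18, of unstated versions. That the scale is log2 follows from the range of the values. Probe sets with 1 symbol in the platform annotation were used (354600 of 1384231), and symbols were updated through RefSeq. A probe set was kept where its average of 9 arrays reached the median of all (6.97). Gene levels are medians of 3 or more kept probe sets, and the exon signal was taken for genes with at least 5. Levels were fitted with limma 3.58.1 in R 4.3.3 (with version 1.17.8 of data.table) in 1 model of 3 groups, with 2-sided tests and Benjamini-Hochberg adjustment over all features at 0.05. The number of arrays limits the precision; the smallest p of an exact permutation test at this size is 0.1. The arrays were not treated as paired by replicate number. Deviations from the group means correlated between -0.14 and 0.33 for the same number and between -0.45 and 0.35 for different numbers. Deviations of 3 arrays from their own mean sum to 0, so these overlapping ranges cannot show whether the arrays are paired. Genes named follow a rule: the 15 largest rises among called genes, the smallest p where none was called, and fixed genes (RAN, KPNB1, XPO1, NXF1, TPR, RANBP2, SEC13, AAAS, NUP98); NUP210 and others were named after their values were seen. The genes, lists, rules and settings were chosen with earlier results of these data known. The fit was tested on simulated data.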

Additional observations from a re-analysis of the deposited data

How the results depend on the processing

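Other settings were a filter left out or set at the upper quartile (8.36), quantile normalization, array centring, the mean as gene level, a variance trend with robust fitting, array weights, a replicate block, only the compared groups, updated symbols and leaving out each array. No result turned its direction past a threshold. On the arrays labelled CPSF3 knockdown, 25 genes were called as reported (49%, against 14.4% of all genes). The count was 10 without CPSF3 replicate 1 (19.6%, against 5.76%) and 16 without CPSF3 replicate 2 (31.4%, against 8.75%). It was 14 without control replicate 1 (27.5%, against 6.46%) and 14 without control replicate 2 (27.5%, against 7.19%). Over all arrays left out in turn the count lay between 10 and 27. It was 27 without control replicate 3 (52.9%, against 20.5%) and without RBFOX2 replicate 3 (52.9%, against 13.5%). Array weights gave 32 (62.7%, against 28.8% of all genes), 3 of them lower. For the RBFOX2 knockdown arrays against control, array weights gave 4 (7.84%, against 9.03% of all genes), and leaving out arrays gave 0 to 5, with 5 only without control replicate 3 (9.8%, against 9.23%). Between the hairpins, 1 gene was called with the filter at the upper quartile (2.04%, against 0.467% of all genes). The count was also 1 with the mean as gene level (1.96%, against 0.836%) and with only the 2 groups (1.96%, against 0.89%). It was 5 with array weights (9.8%, against 3.59%) and 0 to 1 with arrays left out. The 1 was found without control replicate 3 (1.96%, against 0.866%) and without RBFOX2 replicate 3 (1.96%, against 0.424%). Of the exon signals against control on the arrays labelled CPSF3 knockdown, 5 were called with the mean as gene level (0.321%, against 0.263% of all probe sets), 4 with the variance trend (0.257%, against 0.3%), 13 with array weights (0.835%, against 0.752%) and 0 to 23 with arrays left out, the 23 without control replicate 3 (1.48%, against 1.49%). On the RBFOX2 knockdown arrays it was 0 to 7, the 7 without control replicate 3 (0.45%, against 0.32%). The cause was not tested. The replicate block left the counts called among the 51 genes at 25, 0 and 0 (49%, 0% and 0%, against 15.3%, 0.818% and 0.251% of all genes). Over all 16748 genes, the block called 137 on the RBFOX2 knockdown arrays against control, where 29 were called as reported. A small change in a weak probe set is compressed by RMA and may be missed.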
